A study of Mus musculus with 12 samples.

Results

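The zinc genes examined here were 7 transporter genes (Slc30a8, Slc30a5, Slc30a7, Slc30a9, Slc39a6, Slc39a7 and Slc39a14) and the metallothionein genes Mt1 and Mt2. They were taken by name from the 4 single-cell matrices, where they are 9 of 31055 rows, and from the bulk table, where they are 9 of 45808 rows. All 9 had a row in both and passed the filters on low counts there.

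The study sorted islet cells of 2-month-old mice of mixed background that had received doxycycline (DOX, 1 mg/ml in the drinking water), which switches on YFP in cells that use the Ppy promoter. For single-cell RNA-seq, islets came from mice labelled Ppy-rtTA; R26-YFP, and a YFP+ and a YFP- fraction were each made into a library in 2 experiments, giving 4 libraries. For bulk RNA-seq, 5 γ-cell libraries were YFP+ cells of Ppy-rtTA;TetO-Cre;R26-YFP mice and 3 δ-cell libraries YFP+ cells of Sst-Cre;R26-YFP animals, whose Cre follows the Sst gene and needs no DOX, although the labels give the DOX protocol for them too. In the Ppy-rtTA allele the Ppy coding sequence is replaced by rtTA, so that all Ppy-rtTA mice used here carry a single working copy of Ppy. The YFP tag is permanent and marks cells that used Ppy during DOX, including cells with a second hormone, although cells with Ppy mRNA were also found in the YFP- fraction. The bulk γ-cell libraries hold bihormonal cells as well.

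Zinc is stored at high concentration in the secretory granules of pancreatic β-cells, where it packs insulin into hexamers. The SLC30 proteins (ZnT) move zinc out of the cytosol, into organelles or out of the cell, and the SLC39 proteins (ZIP) move zinc into the cytosol. Slc30a8 encodes ZnT8, the transporter of the insulin granule membrane. Slc30a5 and Slc30a7 encode ZnT5 and ZnT7, which load zinc into the early secretory pathway, and Slc30a9 encodes ZnT9, a mitochondrial zinc exporter. Slc39a6 (ZIP6) sits in the plasma membrane, Slc39a7 (ZIP7) releases zinc from the endoplasmic reticulum, and Slc39a14 (ZIP14) takes up zinc, iron and manganese at the cell surface. Mt1 and Mt2 encode small cysteine-rich proteins that bind zinc and copper in the cytosol. Their genes lie side by side and are switched on by the zinc-sensing factor MTF-1 through metal response elements in their promoters.

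The promoters of the metallothionein genes are shown because both genes were called in the same direction in 6 of the 9 class comparisons given further on. They are the 250 bases before the RefSeq transcript start on GRCm38.p6, both on the plus strand: Mt2 at chr8:94172368-94172617 and Mt1 at chr8:94178839-94179088. Capitals mark matches to the core of the metal response element, searched as TGCACNC and TGCGCNC on both strands, of which none overlapped.
Mt2: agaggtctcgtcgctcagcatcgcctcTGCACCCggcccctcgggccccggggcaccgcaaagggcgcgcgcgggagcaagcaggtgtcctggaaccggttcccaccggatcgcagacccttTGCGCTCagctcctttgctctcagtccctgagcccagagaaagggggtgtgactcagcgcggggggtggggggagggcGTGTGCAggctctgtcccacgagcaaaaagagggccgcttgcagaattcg
Mt1: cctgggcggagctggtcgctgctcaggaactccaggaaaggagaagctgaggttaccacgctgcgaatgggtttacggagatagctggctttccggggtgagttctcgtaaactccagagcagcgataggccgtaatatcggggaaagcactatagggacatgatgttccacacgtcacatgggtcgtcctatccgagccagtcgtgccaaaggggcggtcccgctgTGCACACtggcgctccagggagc
The Mt2 window held 3 matches, beginning 223, 128 and 50 bases before the start, and the Mt1 window held 1 match, beginning 23 bases before it. The start used for Mt1 lies inside the annotated span of that gene, which covers other transcripts and begins at 94178883. Most of the Mt1 window thus lies inside the gene. Its 1 match is no count for the bases before the gene and cannot be set against the 3 of Mt2. The Slc30a5 window held 1 match and the windows of Slc30a7, Slc30a9 and Slc39a7 held 0. Of all 32851 promoters of this length, 21.4% held at least 1 match, 5.17% at least 2 and 1.26% at least 3. The promoters of Slc30a8, Slc39a6 and Slc39a14 were not analysed here.

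The 4 single-cell libraries held 1300 to 1689 cells and 10683494 to 18330975 UMIs each and shared 1 to 6 cell barcodes per pair. Bulk library totals were 14633838 to 31784878 counts for γ-cells and 7641916 to 11773598 for δ-cells. Cells were placed in classes by the hormone genes they carried, after removal of non-endocrine clusters and marked doublets, and the UMIs of each class were summed per experiment, since cells are not replicates. In experiments 1 and 2 the monohormonal classes held 652 and 730 Ppy+ cells (γ-cells), 307 and 293 Gcg+ cells (α-cells), 435 and 89 Ins2+ cells (β-cells) and 121 and 110 Sst+ cells (δ-cells). The bihormonal classes held 387 and 365 Ppy+Gcg+ cells, 84 and 39 Ppy+Ins2+ cells and 163 and 213 Ppy+Sst+ cells. Class and sort cannot be told apart for the monohormonal cells: all but 1 and 7 of the Ppy+ cells came from the YFP+ fraction, and all Gcg+ and Sst+ cells and all but 1 of the Ins2+ cells from the YFP- fraction. The 8 endocrine marker genes all had UMIs in every one of the 14 sums. These genes also served in the removal of non-endocrine clusters, and 15 of 15 acinar marker genes had UMIs in the Ppy+ sums too. The presence of the 8 genes is therefore no check of endocrine identity. In bulk, Ppy stood at 87365 to 116446 counts per 1000000 counts (CPM) in γ-cells against 10889 to 16501 in δ-cells, and Sst at 69804 to 101118 CPM in δ-cells against 7119 to 11511 in γ-cells.

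Hormone mRNA took between 22.8 and 74.9% of a class's UMIs, so that a gene's share of all UMIs can be low in a class through its hormones alone. Single-cell levels are therefore given as hormone-free CPM, the UMIs of a gene per 1000000 UMIs after removal of the 7 hormone genes Ppy, Gcg, Ins1, Ins2, Sst, Pyy and Iapp. Levels of the hormones and of marker lists are in CPM of all UMIs. Folds are from edgeR's quasi-likelihood test on the sums (TMM scaling, experiment as a block), and a gene was called at a Benjamini-Hochberg adjusted p of at most 0.05 over all 10433 genes tested and an absolute log2 fold change above 0.721, a natural-log change of 0.5.

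Slc30a8, the ZnT8 gene (chr15:52295553-52335798, plus strand, GRCm38.p6), separated the monohormonal classes into a high and a low pair. Its level was 995 and 796 hormone-free CPM in the Gcg+ sums of experiments 1 and 2. In the Ins2+ sums it was 1150 and 954. In the Ppy+ sums it was 25.1 and 31.05 and in the Sst+ sums 21.9 and 38.2. The high and low classes did not overlap. Within the pairs, Ins2+ lay above Gcg+ cells in both experiments, and Sst+ lay below Ppy+ cells in experiment 1 and above them in experiment 2.

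Slc30a8 was 33.8-fold lower in Ppy+ than in Gcg+ cells (log2 fold change -5.08 ± 0.18 (SE), n = 2 sums per class, adjusted p = 8.24e-25 by edgeR) and 32.2-fold lower than in Ins2+ cells (-5.01 ± 0.18, adjusted p = 5.78e-25 by edgeR). It was 38.7-fold higher in Gcg+ than in Sst+ cells (5.27 ± 0.25) and 36.9-fold higher in Ins2+ than in Sst+ cells (5.20 ± 0.26). From experiment 2 alone the last 2 log2 fold changes were 4.61 and 4.56, and from experiment 1 alone 5.78 and 5.70. Between Ppy+ and Sst+ cells the log2 fold change was 0.19, with an approximate 95% interval of -0.58 to 0.97 (adjusted p = 0.832 by edgeR). Between Gcg+ and Ins2+ cells it was 0.07, with an interval of -0.19 to 0.34 (adjusted p = 0.738 by edgeR), opposite in sign to the hormone-free levels, so that the direction depends on the scaling. In CPM of all UMIs these last 2 classes stood apart, at 659 and 525 in Gcg+ against 289 and 281 in Ins2+ cells, beside hormone shares of 33.8 and 34.0% against 74.9 and 70.6%. In each experiment alone the log2 fold change of Ppy+ against Gcg+ cells was -5.38 and -4.70, and with the library as a block, which compares the fractions only through bihormonal cells found in both, it was -4.297.

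**Figure D1:**
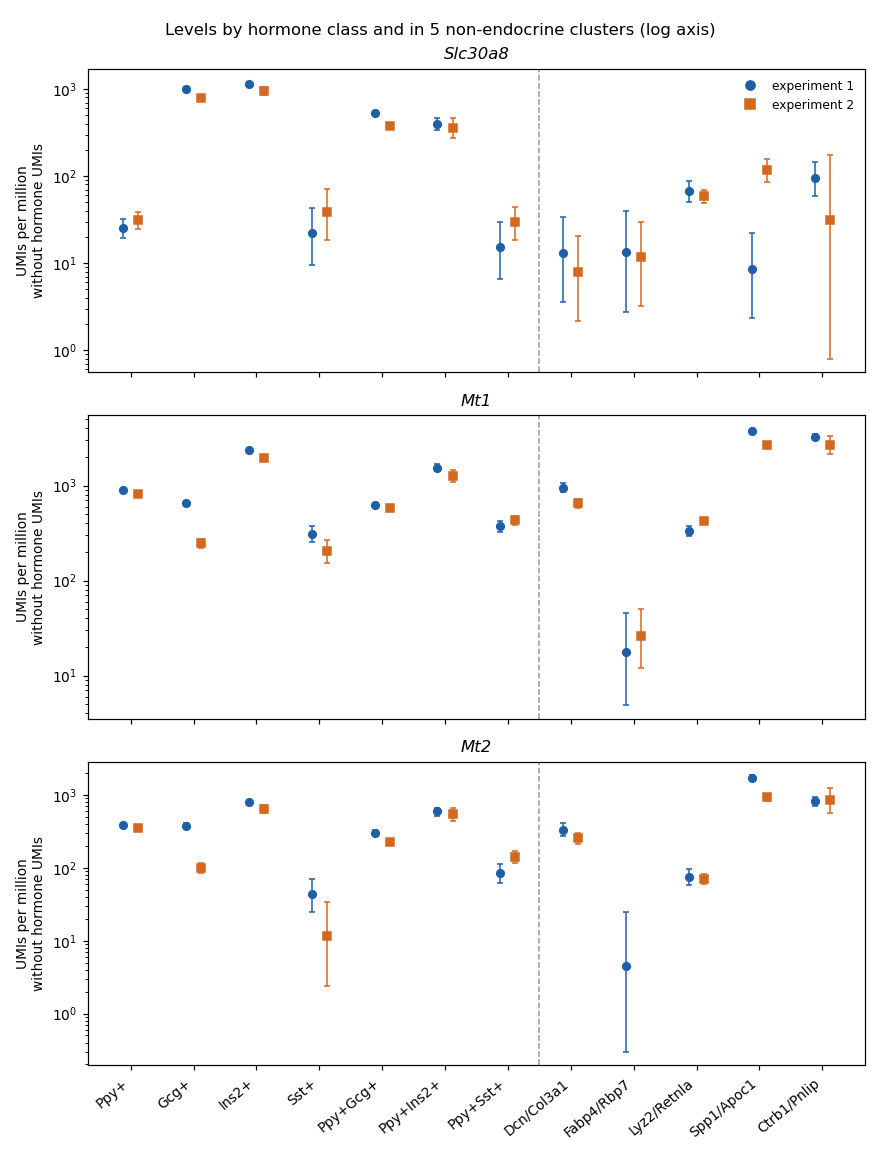
Levels of Slc30a8, Mt1 and Mt2 (hormone-free CPM, log axis) in the 7 hormone classes and, right of the dashed line, in 5 non-endocrine clusters named by 2 leading genes. Each point is the sum of a class or cluster in 1 experiment and each bar its exact 95% binomial interval, which covers counting error only (a sum of 0 UMIs has no point). Slc30a8 stands at 796 to 1150 in Gcg+ and Ins2+ cells and at 21.9 to 38.2 in Ppy+ and Sst+ cells, and Mt1 is highest among the hormone classes in Ins2+ cells (1967 and 2362).

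A small Slc30a8 signal remained in Ppy+ and Sst+ cells and was also present outside the endocrine classes. After each cell was thinned to 1000 UMIs, 1.23 and 0.959% of Ppy+ cells held a Slc30a8 UMI (8 of 652 and 7 of 730 cells). The share was 3.45 and 0.493% in the cluster led by Dcn and Col3a1, which are genes of stromal cells, and 2.60 and 2.22% in the cluster led by Fabp4 and Rbp7, genes of capillary endothelium. In Sst+ cells it was 0 of 121 cells in experiment 1, where the exact 95% interval reaches 3.00%, and 1.82% in experiment 2. In Gcg+ cells the share was 45.6 and 37.9%, and in Ins2+ cells 27.8 and 24.7%. Unthinned, the shares were 98.4 and 91.8% in Gcg+, 94.7 and 91.0% in Ins2+, 7.21 and 6.44% in Ppy+ and 4.96 and 8.18% in Sst+ cells. The unthinned stromal-led cluster gave 4.60 and 1.97%, with a median of 3423 and 2281 UMIs per cell against 7669 and 5922 in Ppy+ cells. The shares of Ppy+ and Sst+ cells thinned to 1000 UMIs lay below that of the Fabp4 and Rbp7 cluster in both experiments. Thinned to 2000 UMIs the order turned in experiment 2, with 3.16% of Ppy+ and 6.10% of Sst+ cells against 2.78%. Thinning counts hormone UMIs, which took 52.7 and 53.4% of the UMIs of Ppy+ cells and 1.63 and 1.14% of those of this cluster.

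In the clusters outside the endocrine classes Slc30a8 was at 13.2 and 7.97 hormone-free CPM in the Dcn and Col3a1 cluster, at 13.4 and 11.7 in the Fabp4 and Rbp7 cluster and at 67.2 and 58.9 in the cluster led by Lyz2 and Retnla, genes of macrophages. The cluster led by Spp1 and Apoc1 gave 8.63 and 118 hormone-free CPM in experiments 1 and 2. The Ppy+ sums thus lay above the first 2 of these clusters and below the Lyz2 and Retnla cluster in both experiments, a different order from that of the thinned shares. No order is therefore read from the shares, and whether the few Slc30a8 UMIs of Ppy+ and Sst+ cells came from these cells or from free RNA was not tested.

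Bihormonal cells had Slc30a8 where their second hormone was Gcg or Ins2. The level was 529 and 372 hormone-free CPM in Ppy+Gcg+ cells, 394 and 356 in Ppy+Ins2+ cells and 15.1 and 29.4 in Ppy+Sst+ cells. The first 2 classes did not overlap with monohormonal Ppy+ cells, and the third did. Slc30a8 was 15.8-fold higher in Ppy+Gcg+ than in Ppy+ cells (log2 fold change 3.98 ± 0.17, adjusted p = 8.95e-21 by edgeR) and 11.5-fold higher in Ppy+Ins2+ cells (3.53 ± 0.21, adjusted p = 1.11e-16 by edgeR). In Ppy+Sst+ cells the log2 fold change was -0.42, with an interval of -1.04 to 0.21 (adjusted p = 0.499 by edgeR). The share of cells with a Slc30a8 UMI at 1000 UMIs was 29.7 and 20.3% in Ppy+Gcg+ cells, 14.3 and 28.2% in Ppy+Ins2+ cells and 0.613 and 0.939% in Ppy+Sst+ cells. Unthinned, these shares were 79.6 and 59.7%, 58.3 and 53.8%, and 3.68 and 7.51%. The bihormonal classes were set here by hormone thresholds alone, in any endocrine cluster. The authors kept only bihormonal cells of a separate bihormonal cluster and also used Scrublet to remove doublets. Whether doublets, or cells close to a monohormonal class, add to these levels was not tested.

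Ppy+Gcg+ cells came from both sorted fractions, which allowed Slc30a8 to be compared at different hormone content. In the YFP+ fraction its level was 483 hormone-free CPM in experiment 1 (336 cells) and 325 in experiment 2 (332 cells). In the YFP- fraction it was 851 (51 cells) and 772 (33 cells). In each experiment the YFP- value lay above the YFP+ value and below that of monohormonal Gcg+ cells. Gcg mRNA moved the same way, at 149678 and 106720 CPM in the YFP+ fraction and 297814 and 279481 in the YFP- fraction, and Ppy mRNA the other way, at 127017 and 140663 against 13703 and 27782. The fractions were not tested against each other, and the part of hormone content in the difference was not tested.

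**Figure D2:**
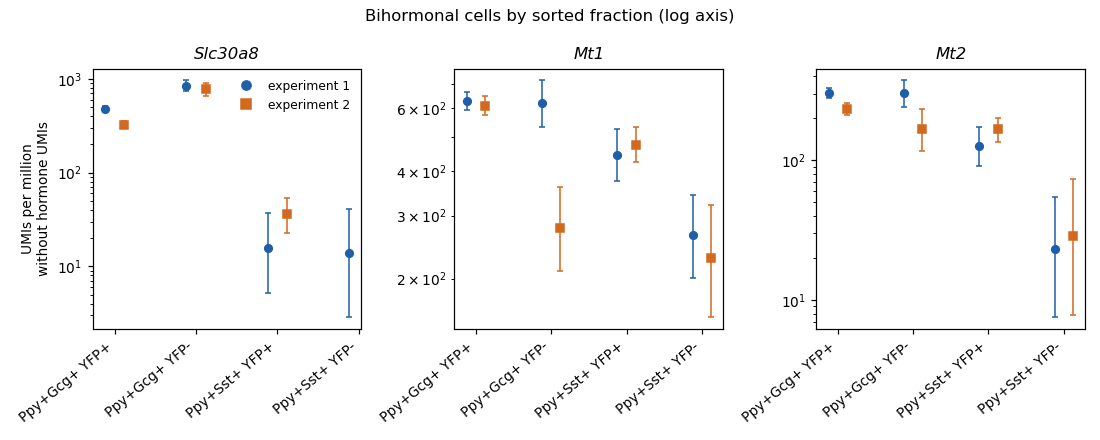
Levels of Slc30a8, Mt1 and Mt2 (hormone-free CPM, log axis) in Ppy+Gcg+ and Ppy+Sst+ cells by sorted fraction and experiment, with exact 95% binomial intervals for counting error. A sum of 0 UMIs has no point. Slc30a8 in Ppy+Gcg+ cells is at 325 and 483 in YFP+ and at 772 and 851 in YFP- cells, and Mt2 in Ppy+Sst+ cells is at 127 and 167 in YFP+ and at 23.3 and 28.5 in YFP- cells.

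The metallothioneins followed another order, with Ins2+ cells highest, Ppy+ and Gcg+ cells between and Sst+ cells lowest. Mt1 (chr8:94178883-94180327, plus strand) was at 2362 and 1967 hormone-free CPM in Ins2+ cells, 889 and 822 in Ppy+ cells, 649 and 246 in Gcg+ cells and 312 and 203 in Sst+ cells. Only the Gcg+ and Sst+ ranges overlapped. Mt1 was 2.15-fold lower in Ppy+ than in Ins2+ cells (log2 fold change -1.11 ± 0.18, adjusted p = 2.79e-06 by edgeR) and 3.89-fold higher in Ppy+ than in Sst+ cells (1.96 ± 0.22, adjusted p = 7.52e-09 by edgeR). It was 4.02-fold lower in Gcg+ than in Ins2+ cells and 8.36-fold higher in Ins2+ than in Sst+ cells (adjusted p = 8.88e-12 and 3.46e-14 by edgeR), the first with log2 fold changes of -1.57 and -2.67 in experiments 1 and 2 alone.

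Mt1 was called as 1.87-fold higher in Ppy+ than in Gcg+ cells (log2 fold change 0.90 ± 0.18, adjusted p = 0.000196 by edgeR), but the size rested on experiment 2. In experiment 1 alone the log2 fold change was 0.35 and in experiment 2 alone 1.67. The call was lost without the experiment block (0.83, adjusted p = 0.128) and with the library as a block (0.38, adjusted p = 0.343). Mt1 was also 2.08-fold higher in Gcg+ than in Sst+ cells (1.06 ± 0.23, adjusted p = 0.00073 by edgeR), a call lost without the experiment block (adjusted p = 0.0596).

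Mt2 (chr8:94172618-94173567, plus strand) was at 805 and 652 hormone-free CPM in Ins2+ cells and at 383 and 352 in Ppy+ cells. In Gcg+ cells it was at 380 and 99.4, and in Sst+ cells at 43.8 and 11.5, the last value from 3 UMIs. The Sst+ sums were below those of every other hormone class in both experiments. Mt2 was 14.8-fold higher in Ppy+ than in Sst+ cells (log2 fold change 3.89 ± 0.43, adjusted p = 3.89e-09 by edgeR), 9.71-fold higher in Gcg+ than in Sst+ cells and 24.7-fold higher in Ins2+ than in Sst+ cells. The size of the first and last of these rested on the few Sst+ UMIs of each experiment, with log2 fold changes of 3.31 and 5.02 against Ppy+ cells and 4.20 and 5.66 against Ins2+ cells in experiments 1 and 2 alone. It was 2.54-fold lower in Gcg+ than in Ins2+ cells (-1.35 ± 0.23, adjusted p = 7e-06 by edgeR), a call lost in DESeq2 (adjusted p = 0.0928), with -0.79 and -2.38 in experiments 1 and 2 alone. It was 1.67-fold lower in Ppy+ than in Ins2+ cells (-0.74 ± 0.22, adjusted p = 0.00652 by edgeR), just past the fold minimum, and this call was lost in DESeq2 (adjusted p = 0.418) and without the experiment block (adjusted p = 0.188). The fold also fell under the minimum without a filter on low counts (-0.69) and, barely, without the cluster requirement. Between Ppy+ and Gcg+ cells Mt2 had a log2 fold change of 0.61 (adjusted p = 0.0479 by edgeR), below the fold minimum, made of -0.10 in experiment 1 and 1.75 in experiment 2. Most of Mt2's exon length, 73.5%, is shared with the antisense gene Gm45774, which has its own row in the single-cell matrices but was not in the bulk table.

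In bihormonal cells the metallothioneins passed the test with Sst as the second hormone, and were lower than in Ppy+ cells. Mt1 was at 372 and 430 hormone-free CPM and Mt2 at 85.0 and 142 in Ppy+Sst+ cells, all below the Ppy+ sums. Mt1 was 2.38-fold lower (log2 fold change -1.25 ± 0.19, adjusted p = 5.12e-06 by edgeR) and Mt2 3.48-fold lower than in Ppy+ cells (-1.80 ± 0.27, adjusted p = 3.76e-06 by edgeR, 0.0553 in DESeq2). In Ppy+Gcg+ cells Mt1 was at 627 and 575 and Mt2 at 305 and 225, with log2 fold changes of -0.52 and -0.51 against Ppy+ cells (adjusted p = 0.0771 and 0.208 by edgeR). In Ppy+Ins2+ cells Mt1 was at 1543 and 1262 and Mt2 at 595 and 549, with log2 fold changes of 0.49 and 0.39 (adjusted p = 0.0933 and 0.388 by edgeR). Both genes thus lay above the Ppy+ sums in each experiment without passing the test. Whether the change with Sst differed from that with Gcg or Ins2 was not tested.

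Within Ppy+Sst+ cells the 2 sorted fractions differed in metallothionein level as well. Mt2 was at 127 and 167 hormone-free CPM in the YFP+ fraction and at 23.3 and 28.5 in the YFP- fraction (5 and 4 UMIs). Mt1 was at 445 and 475 in the YFP+ and at 265 and 228 in the YFP- fraction. The YFP- values were near those of monohormonal Sst+ cells. Ppy mRNA was at 108303 and 149659 CPM in the YFP+ fraction and at 17970 and 18799 in the YFP- fraction, and Sst mRNA at 93883 and 47795 against 189305 and 144885. The part of hormone content in the metallothionein levels was not tested.

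Mt1 and Mt2 UMIs tended to fall in the same cells. At 1000 UMIs per cell, 30.8 and 27.7% of Ppy+ cells held a Mt1 UMI and 13.8 and 13.6% a Mt2 UMI (80.2 and 67.8%, and 55.7 and 43.4%, unthinned). Among Ppy+ cells with a Mt2 UMI, 45.6 and 40.4% held Mt1, against 28.5 and 25.7% of those without. In Ins2+ cells the same shares were 60.0 and 66.7% against 33.1 and 29.7%. Sst+ cells of experiment 1 went the other way, with 12.5% of only 8 Mt2-holding cells against 22.1%. In Gcg+ cells, Mt1 was found at 1000 UMIs in 35.2% of cells in experiment 1 and in 13.0% in experiment 2, and Mt2 in 18.2 and 5.12% (unthinned 73.9 and 46.1%, and 56.7 and 27.6%), so that fewer Gcg+ cells held either gene in experiment 2. These shares are a description of sparse counts, and cells of 1 library share its free RNA.

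Outside the endocrine classes Mt1 covered a wide range. It was at 3219 and 2676 hormone-free CPM in the cluster led by the acinar genes Ctrb1 and Pnlip and at 3768 and 2671 in the cluster led by the ductal gene Spp1 and by Apoc1. In the cluster led by Fabp4 and Rbp7 it was at 17.9 and 26.3. Mt2 was at 824 and 850, 1739 and 932, and 4.48 and 0 hormone-free CPM in the same 3 clusters. The summed level of the acinar list, detected for 15 of 15 genes in Ppy+ and Gcg+ cells, was 113 and 87.1 CPM in Ppy+, 396 and 345 in Gcg+, 196 and 133 in Ins2+ and 648 and 666 in Sst+ cells. It was thus highest in the class with the lowest Mt1 and Mt2. The summed level of 9 immediate early and heat shock genes was 141 and 188 CPM in Ins2+ cells, 768 and 569 in Ppy+, 754 and 674 in Gcg+ and 467 and 711 in Sst+ cells, lowest where the metallothioneins were highest. Both list sums are in CPM of all UMIs. Hormone genes took 74.87 and 70.59% of these in Ins2+ cells and 30.66 and 22.85% in Sst+ cells. The size of these contrasts therefore depends on the scale. The part of either list in the metallothionein levels was not tested.

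The transporters of the early secretory pathway and of mitochondria were sparse, and those that passed a test did so mostly against Ins2+ cells. Slc30a5, the ZnT5 gene (chr13:100802645-100833480, minus strand), was at 58.9 and 67.7 hormone-free CPM in Ins2+ cells, 29.3 and 33.1 in Ppy+, 26.0 and 28.2 in Gcg+ and 43.8 and 34.4 in Sst+ cells. On this scale the Ins2+ sums were above all others among the monohormonal classes. In CPM of all UMIs the means were 17.4 in Ins2+, 14.6 in Ppy+, 17.9 in Gcg+ and 28.5 in Sst+ cells. The order of the classes thus depends on the scale. Slc30a5 was 1.68-fold lower in Ppy+ and 1.82-fold lower in Gcg+ than in Ins2+ cells (log2 fold changes -0.75 ± 0.19 and -0.86 ± 0.21, adjusted p = 0.00132 and 0.00101 by edgeR), the first of which was lost with the library as a block (-0.48, adjusted p = 0.322). In Ppy+Ins2+ cells it was at 78.8 and 48.3, 1.96-fold above Ppy+ cells (0.97 ± 0.27, adjusted p = 0.0182 by edgeR). That call rested on 33 and 8 UMIs, with log2 fold changes of 1.26 and 0.29 in experiments 1 and 2 alone, and was lost in DESeq2 (adjusted p = 0.0561), without the experiment block (0.0516) and with raised hormone thresholds (0.0872).

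Slc30a7, the ZnT7 gene (chr3:115938973-116007414, minus strand), was at 35.8 and 48.0 hormone-free CPM in Ins2+ cells, 21.3 and 20.98 in Ppy+, 16.4 and 18.0 in Gcg+ and 19.2 and 11.5 in Sst+ cells. The Ins2+ sums were again above the others on this scale. In CPM of all UMIs the means lay close together, at 11.6 in Ins2+, 9.91 in Ppy+, 11.4 in Gcg+ and 11.1 in Sst+ cells. Slc30a7 was 1.86-fold lower in Gcg+ than in Ins2+ cells (log2 fold change -0.90 ± 0.26, adjusted p = 0.00573 by edgeR) and 2.45-fold higher in Ins2+ than in Sst+ cells (1.30 ± 0.43, adjusted p = 0.0285 by edgeR). Both calls were lost in DESeq2 (adjusted p = 0.0527 and 0.117), and the second had log2 fold changes of 0.90 and 1.92 in experiments 1 and 2 alone. Against Ins2+ cells, Ppy+ cells had a log2 fold change of -0.69, short of the fold minimum (adjusted p = 0.0153 by edgeR).

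Slc30a9, the ZnT9 gene (chr5:67306955-67356142, plus strand), was at 60.5 and 56.4 hormone-free CPM in Ins2+ cells, 24.7 and 28.1 in Ppy+, 39.0 and 28.9 in Gcg+ and 38.4 and 76.4 in Sst+ cells. The Ppy+ sums were the lowest of the 4 monohormonal classes in both experiments. The gene was 1.98-fold lower in Ppy+ than in Ins2+ cells (log2 fold change -0.98 ± 0.20, adjusted p = 0.000162 by edgeR), a call lost with the library as a block (-0.75, adjusted p = 0.105). Against Gcg+ and Sst+ cells the log2 fold changes of Ppy+ cells were -0.47 and -0.83 (adjusted p = 0.126 and 0.0726 by edgeR).

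The importers had a single call among the class comparisons, that of Slc39a7. Slc39a7, the ZIP7 gene (chr17:34028266-34031690, minus strand), was at 126 and 167 hormone-free CPM in Ins2+ cells, 97.3 and 86.0 in Ppy+, 79.1 and 66.0 in Gcg+ and 79.5 and 76.4 in Sst+ cells. It was 1.72-fold higher in Ins2+ than in Sst+ cells (log2 fold change 0.78 ± 0.24, adjusted p = 0.0157 by edgeR, 0.0655 in DESeq2). Slc39a6, the ZIP6 gene, ranged from 11.5 to 42.8 hormone-free CPM over the 14 sums and was called in 0 of the 9 class comparisons. Its lowest adjusted p by edgeR was 0.0298, for Ppy+ against Ins2+ cells (log2 fold change -0.64), and its largest fold was in Ins2+ against Sst+ cells (1.04, with an interval of 0.20 to 1.88, adjusted p = 0.0918). Slc39a14, the ZIP14 gene (chr14:70303467-70351452, minus strand), was at 15.6 and 17.2 hormone-free CPM in Ppy+ cells, 15.3 and 18.6 in Gcg+ and 14.3 and 14.1 in Ins2+ cells. In Sst+ cells it was at 5.48 and 7.64, from 2 UMIs in each experiment. The log2 fold change of Ppy+ against Sst+ cells was 1.55, with an interval of 0.29 to 2.81 (adjusted p = 0.11 by edgeR), and that of Gcg+ against Sst+ cells 1.68, with an interval of 0.41 to 2.95 (adjusted p = 0.0852 by edgeR), so that the depth of the Sst+ sums did not settle a difference.

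**Figure D3:**
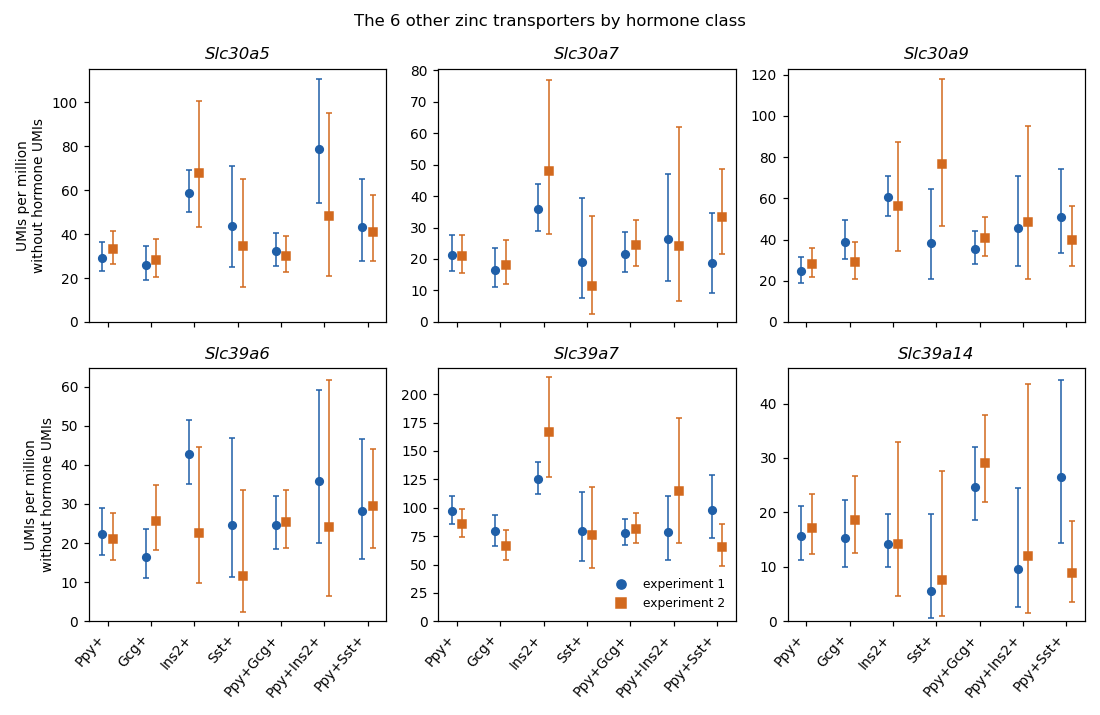
Levels of the 6 other zinc transporter genes (hormone-free CPM, linear axis from 0) in the 7 hormone classes. Each point is 1 experiment, with its exact 95% binomial interval for counting error. Slc30a5 and Slc30a7 are highest among monohormonal classes in Ins2+ cells (58.9 and 67.7, and 35.8 and 48.0), and Slc39a14 is lowest in Sst+ cells (5.48 and 7.64).

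Counted over the 9 genes, Ppy+ cells had the most calls against Ins2+ cells, where the share of all genes called was also the largest. Against Ins2+ cells 5 of 9 were called, all lower in Ppy+ cells (Slc30a8, Slc30a5, Slc30a9, Mt1 and Mt2), where 26.5% of all genes tested were called. The median log2 fold change was -0.74 over the 9 genes and 0.003 over all genes. Against Gcg+ cells 2 of 9 were called (Mt1 higher, Slc30a8 lower; 12.5% of all genes), with medians of 0.11 and -0.02. Against Sst+ cells 2 of 9 were called, Mt1 and Mt2, both higher (11.5% of all genes), with medians of 0.45 and 0.02. Counts of 2 of 9 are near these backgrounds and say nothing of the 9 genes as a group.

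Among the other monohormonal classes, 4 of 9 were lower in Gcg+ than in Ins2+ cells (Slc30a5, Slc30a7, Mt1 and Mt2; 22.3% of all genes called). In Gcg+ against Sst+ cells 3 of 9 were called, all higher (Slc30a8, Mt1 and Mt2; 11.7% of all genes). In Ins2+ against Sst+ cells 5 of 9 were called, all higher (Slc30a8, Slc30a7, Slc39a7, Mt1 and Mt2; 15.4% of all genes). In the bihormonal classes 1 of 9 was called in Ppy+Gcg+ cells against Ppy+ cells (2.75% of all genes), 2 of 9 in Ppy+Ins2+ cells (7.5% of all genes) and 2 of 9 in Ppy+Sst+ cells (7.9% of all genes). These comparisons share their sums, so that they are not independent of each other.

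**Figure D4:**
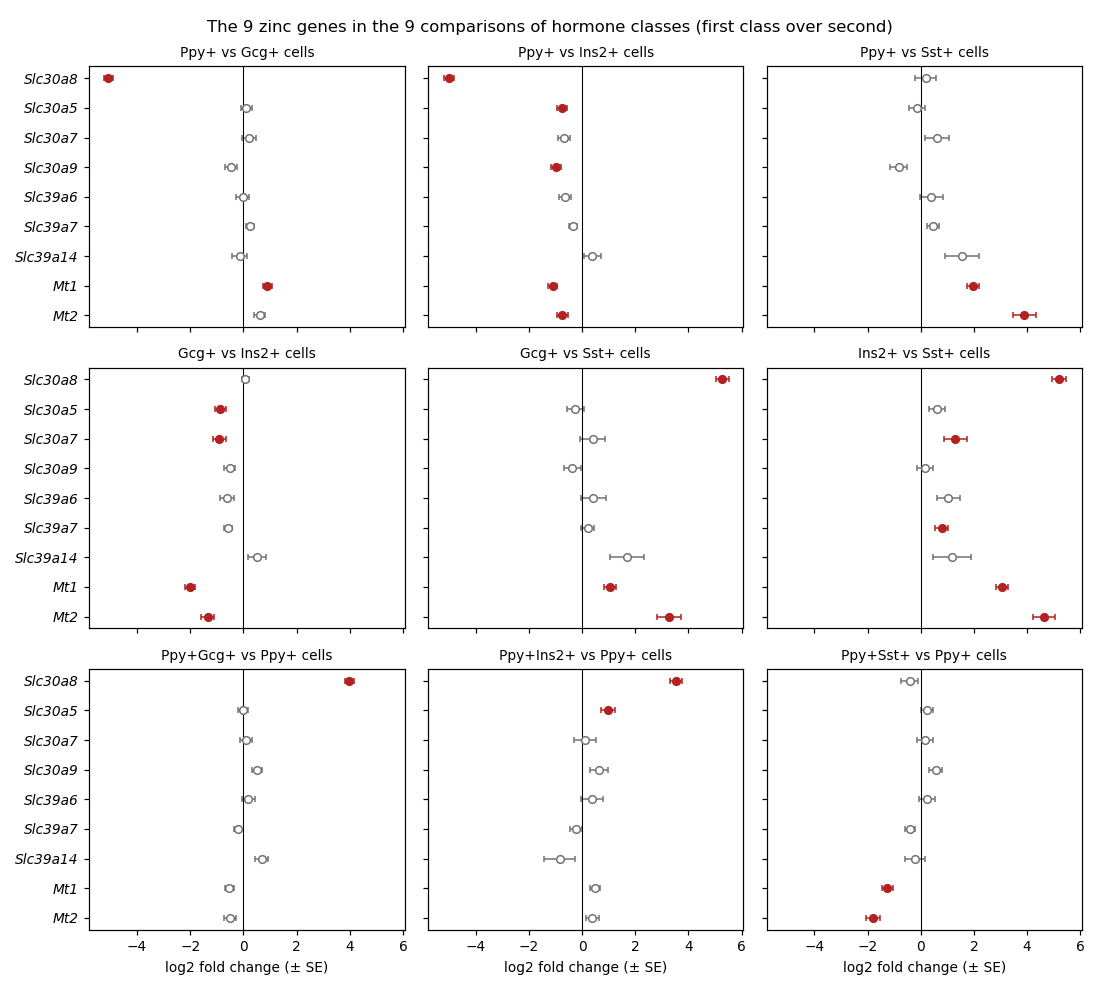
Log2 fold changes of the 9 genes in the 9 class comparisons (first class over second) by edgeR's quasi-likelihood test, with bars of 1 standard error; red filled points are called and open grey points are not. Slc30a8 spans -5.08 (Ppy+ against Gcg+ cells) to 5.27 (Gcg+ against Sst+ cells), and Mt2 reaches 4.63 in Ins2+ against Sst+ cells.

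Genes whose levels ran most like Slc30a8 over the 14 sums, among 8027 genes outside the zinc lists, were Spc25 (Pearson's r 0.946), Dapl1 (0.939), Maob (0.898) and Il1r1 (0.883). For Mt1 they were Bace2 (0.818), Ntrk2 (0.814), Wls (0.804), Hepacam2 (0.799) and AC078895.1 (0.788). For Mt2 they were Gm30648 (0.881), Vsnl1 (0.876), Pycr1 (0.870), Ociad2 (0.865) and Ffar1 (0.862). The likeness was taken on log2(CPM + 1) of all UMIs, the sums share libraries and hormone content, and the values describe these sums only.

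In bulk libraries, levels are in CPM of all counts, and calls needed at least a 2-fold change besides an adjusted p of at most 0.05 over 17926 genes. Bulk values average over the sorted cells, so that fewer cells of a type and less RNA per cell cannot be told apart. Platform and read layout also went with the cell type and cannot be told apart from it: γ-cell libraries were paired-end and δ-cell libraries single-end. In γ-cells against δ-cells 7 of 9 zinc genes were called, where 35.0% of all genes were. Of these, 6 were higher in γ-cells and Slc39a7 was lower, and the median log2 fold change was 1.16 over the 9 genes and -0.06 over all genes.

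Slc30a8 was at 199, 185, 124, 152 and 175 CPM in the 5 γ-cell libraries and at 27.0, 15.3 and 11.8 CPM in the 3 δ-cell libraries. All γ-cell libraries were above all δ-cell libraries. The difference was 11.4-fold (log2 fold change 3.51 ± 0.28, adjusted p = 2.69e-06 by edgeR). It stood beside 43968 to 83707 CPM of Gcg in γ-cells against 1557 to 6696 in δ-cells, and 5225 to 15417 CPM of Ins2 against 935 to 2297. In single cells, where classes were set by hormones, Slc30a8 was at 21.9 to 38.2 hormone-free CPM in Ppy+ and Sst+ cells and at 356 to 529 in Ppy+Gcg+ and Ppy+Ins2+ cells. The part of bihormonal cells in the bulk difference was not tested.

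Slc30a5 was even among libraries, at 128, 126, 126, 130 and 115 CPM in γ-cells and 18.6, 19.7 and 21.5 CPM in δ-cells. It was 7.55-fold higher in γ-cells (log2 fold change 2.92 ± 0.11, adjusted p = 2.29e-08 by edgeR), with no overlap. In single cells the same gene had a log2 fold change of -0.14 between Ppy+ and Sst+ cells, with an interval of -0.75 to 0.47 (adjusted p = 0.85 by edgeR), a range that leaves out the bulk difference. The bulk and single-cell contrasts differ in sort, chemistry and the part of the transcript that is read, and none of these was tested.

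Slc30a9 was at 84.5, 75.5, 75.1, 80.6 and 88.1 CPM in γ-cells and 29.3, 18.1 and 25.4 CPM in δ-cells, 4.06-fold higher in γ-cells (log2 fold change 2.02 ± 0.14, adjusted p = 9.46e-07 by edgeR). The direction was opposite in single cells, where the log2 fold change of Ppy+ against Sst+ cells was -0.83 and did not pass the test. Slc30a7 was at 42.1, 39.2, 40.6, 55.7 and 35.7 CPM in γ-cells and 49.9, 41.0 and 44.1 CPM in δ-cells. The groups overlapped, and the log2 fold change was 0.20, with an interval of -0.08 to 0.48 (adjusted p = 0.268 by edgeR). The mean CPM ran the other way, at 42.7 in γ-cells and 45.0 in δ-cells, and upper-quartile scaling turned the log2 fold change to -0.10.

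Among the importers, Slc39a14 was at 51.6, 44.7, 40.7, 29.1 and 32.7 CPM in γ-cells and 17.3, 17.5 and 16.7 CPM in δ-cells, 2.80-fold higher in γ-cells (log2 fold change 1.49 ± 0.20, adjusted p = 0.000111 by edgeR). Slc39a6 was at 50.9, 52.3, 52.1, 62.8 and 55.6 CPM in γ-cells and 23.9, 29.9 and 34.5 CPM in δ-cells, 2.24-fold higher (1.16 ± 0.14, adjusted p = 6.42e-05 by edgeR). Neither gene's groups overlapped. Upper-quartile scaling moved the median of all genes to -0.35 and took Slc39a6 to 0.87, under the fold minimum.

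Slc39a7 was at 3.87, 4.63, 5.69, 5.17 and 5.74 CPM in γ-cells and 8.90, 12.5 and 15.4 CPM in δ-cells, and was called as 2.03-fold lower in γ-cells (log2 fold change -1.02 ± 0.26, adjusted p = 0.00733 by edgeR). It fell short of the fold minimum when δ-cell library 2 (-0.96), δ-cell library 3 (-0.86), γ-cell library 1 (-0.93) or γ-cell library 2 (-0.99) was left out. Of its exon length, 80.7% is shared with Gm20427 on the same strand, and the authors' counting in union mode drops reads that fall on both genes, so that its bulk level is uncertain. Gm20427 itself had 0 to 10 counts per library.

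Mt2 was at 31.4, 36.9, 43.2, 42.7 and 33.5 CPM in γ-cells and 24.7, 24.3 and 12.5 CPM in δ-cells, 2.20-fold higher in γ-cells (log2 fold change 1.14 ± 0.24, adjusted p = 0.00232 by edgeR). Without δ-cell library 3, the lowest, the log2 fold change was 0.86 and below the minimum, and with upper-quartile scaling it was 0.83. The bulk kit does not mark strand, so that the Mt2 value may hold reads of the antisense gene Gm45774. Mt1 was at 106, 130, 173, 148 and 117 CPM in γ-cells and 225, 188 and 107 CPM in δ-cells. These groups overlapped, and the log2 fold change was -0.09, with an interval of -0.55 to 0.37 (adjusted p = 0.77 by edgeR). In single cells the log2 fold change of Ppy+ against Sst+ cells was 1.96 for Mt1, outside this interval. For Mt2 it was 3.89, against 1.14 in bulk. Why bulk and single cells differed for the metallothioneins was not tested. The 3 δ-cell libraries had 118530, 103100 and 28233 CPM over the 16 acinar marker genes, against 2562 to 14428 in γ-cells, so that Mt1 and Mt2 were lowest in the δ-cell library with the least acinar RNA. The 9 immediate early and heat shock genes summed to 3265 to 5999 CPM in δ-cells and 1892 to 3377 in γ-cells. The members of this list went both ways. Mean CPM was higher in δ-cells for Fos (2200 against 560), Dnajb1 (1141 against 55.2), Hspa1a (172 against 2.21), Hspa1b and Atf3. It was higher in γ-cells for Jun (574 against 297), Junb (343 against 70.6), Ier2 (291 against 204) and Egr1 (635 against 549). The part of acinar RNA or of stress in the metallothionein levels was not tested.

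**Figure D5:**
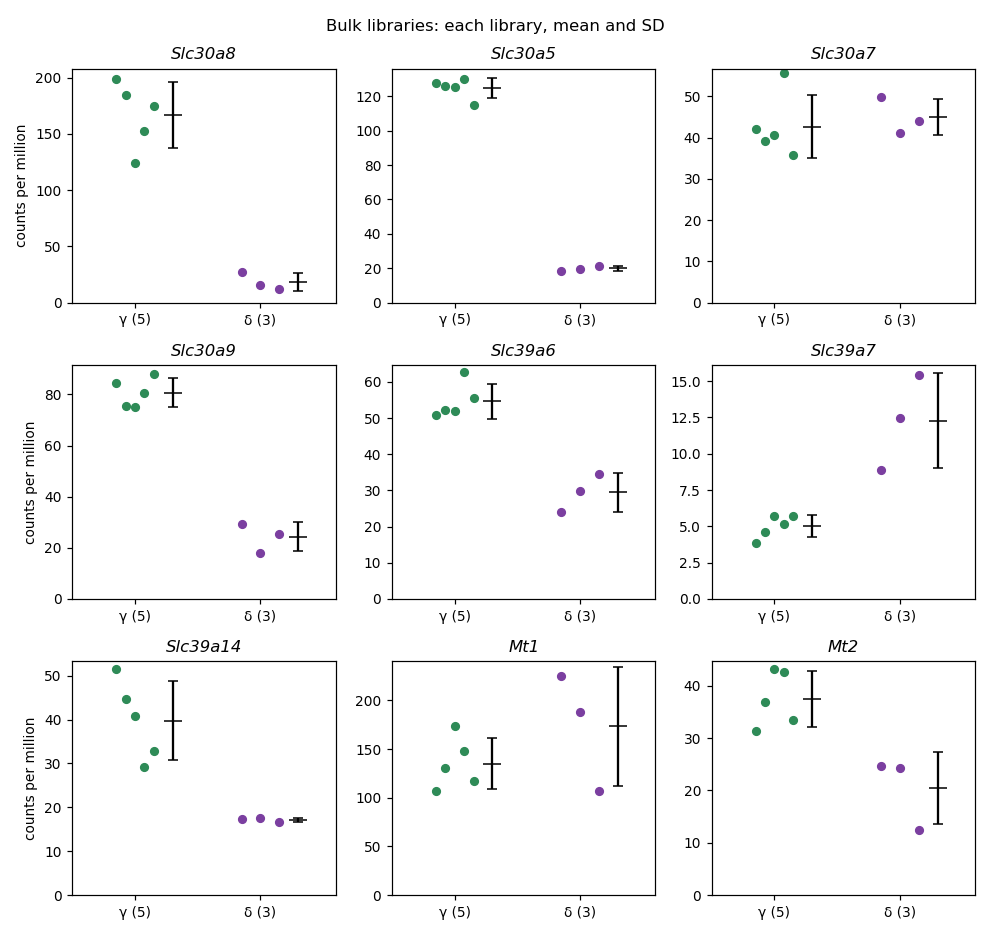
Level of each of the 9 genes in the 5 γ-cell and 3 δ-cell bulk libraries (CPM of all counts, linear axis from 0); points are libraries, and the black dash and bar beside them the mean and SD. The groups do not overlap for Slc30a8 (124 to 199 against 11.8 to 27.0) and Slc30a5 (115 to 130 against 18.6 to 21.5) and do overlap for Mt1 and Slc30a7.

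Per exon length, in TPM (transcripts per 1000000 transcripts), the leading genes among the 9 in γ-cells were Mt1 with 152 ± 25.0 (SD, n = 5), Slc30a8 with 120 ± 25.1 and Mt2 with 89.7 ± 9.97. The first 2 did not differ beyond their spread. Slc30a5 followed with 24.1 ± 1.56, Slc39a6 with 18.9 ± 1.48 and Slc30a9 with 9.21 ± 0.893, and Slc30a7 (5.41), Slc39a14 (5.35) and Slc39a7 (2.73) came last. The place of Slc39a7 is uncertain, since reads on the exon length it shares with Gm20427 were dropped. In single Ppy+ cells its mean was 91.6 hormone-free CPM, above Slc30a5 (31.2) and Slc30a8 (28.1). In δ-cells Mt1 had 286 ± 93.3 TPM (SD, n = 3) and Mt2 71.6 ± 21.8. Slc30a8 with 18.8 ± 8.16 and Slc39a6 with 15.04 ± 3.25 followed and did not differ beyond their spread, and the other 5 were between 3.37 and 9.89 TPM. Among the 9 genes Slc30a8 thus came, by mean TPM, after Mt1 in γ-cells and after Mt1 and Mt2 in δ-cells. The lengths join the exons of all annotated transcripts of a gene. They were 1246 bases in 1 block for Mt1, 588 in 3 for Mt2, 1971 in 8 for Slc30a8 and 12374 in 18 for Slc30a9. A joined length above that of the transcripts in use lowers the TPM. The order by TPM, and the nearness of Mt1 and Slc30a8 in γ-cells, therefore depend on these lengths. Outside the 9, the zinc transporter genes Slc39a3 (31.2 TPM) and Slc39a11 (27.3) lay above Slc30a5 in γ-cells. In δ-cells Slc39a1 (69.0 TPM), Slc39a11 (31.8), Slc39a9 (25.7), Slc39a13 (22.6) and Slc39a5 (21.7, with an SD of 12.8) lay above Slc30a8 by mean TPM.

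Of 20 other genes of zinc handling, 12 could be tested in single cells and 16 in bulk. In Ppy+ cells, Slc39a13, a ZIP gene, was higher than in Gcg+ cells (log2 fold change 0.81) and Slc39a11 lower (-0.85), 2 of 12 called in all, where 12.5% of all genes were. Against Ins2+ cells 2 of 12 were lower in Ppy+ cells (26.5% of all genes called). These were Slc30a1, the plasma membrane zinc exporter (log2 fold change -1.10), and Mt3, a further metallothionein (-3.66). Slc30a1 was sparse and uneven between experiments, at 3.25 ± 2.25 CPM of all UMIs in Ins2+ and 3.29 ± 0.328 in Ppy+ cells (SD, n = 2 sums). The folds of each experiment alone are not given for this gene, so that no direction is read from its call. Most Mt3 UMIs of the monohormonal classes fell in Ins2+ cells, with 74 and 6 UMIs there against 6 and 2 in Ppy+, 5 and 3 in Gcg+ and 1 and 2 in Sst+ cells. Against Sst+ cells 1 of 12 was lower in Ppy+ cells (11.5% of all genes called), the importer Slc39a8, with 1 and 4 UMIs in Ppy+ and 3 and 7 in the smaller Sst+ sums. Slc39a8 was also the single gene of 12 called in Ppy+Sst+ against Ppy+ cells, higher on 2 and 11 UMIs, and 0 of 12 were called by edgeR in Ppy+Gcg+ or Ppy+Ins2+ cells. Slc39a11 was higher in Gcg+ cells in all 3 comparisons with another monohormonal class, at 23.7 and 29.5 hormone-free CPM against 8.22 to 15.6 in the others.

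In bulk, 7 of these 16 were called, near the share of 35.0% over all genes. Slc30a1 (log2 fold change 2.56), Slc30a4 (1.32) and Slc39a3 (1.95) were higher in γ-cells, and Slc39a1 (-3.71), Slc39a2 (-2.56), Slc39a4 (-1.64) and Slc39a5 (-3.27) were lower. Slc39a4 was at 22.6, 17.6 and 2.63 CPM and Slc39a5 at 32.6, 31.6 and 7.15 CPM in δ-cell libraries 1 to 3, lowest in library 3, where the acinar markers were lowest too. In single cells Slc39a5 had 0 to 2 UMIs in each of the 14 class sums and 15 and 1 UMIs in the Ctrb1 and Pnlip cluster. The part of acinar RNA in these differences was not tested. Slc39a1, a plasma membrane zinc importer, was at 78.5 ± 5.41 CPM in δ-cells (SD, n = 3) and 4.99 ± 0.750 in γ-cells (SD, n = 5), the widest separation among the zinc genes lower in γ-cells. In single cells Slc39a1 was not called between Ppy+ and Sst+ cells. Its level there was 17.6 ± 3.83 against 43.8 ± 29.8 CPM of all UMIs (SD, n = 2 sums), a smaller gap with a wide spread. Hormone genes took 52.72 and 53.44% of these UMIs in Ppy+ and 30.66 and 22.85% in Sst+ cells. The size of the single-cell gap therefore depends on the scale. The source of the disagreement between bulk and single cells was not tested. Mtf1, the gene of the zinc-sensing factor, was not called in any comparison, with a log2 fold change of 0.16 in bulk (adjusted p = 0.294 by edgeR).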

How the data were processed

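Single-cell UMI counts were deposited by the authors as made with Cell Ranger on mm10 with YFP and rtTA added, and bulk counts as raw gene counts from STAR 2.7.2b and HTSeq 0.9.1 (union mode, GRCm38.p6). The 6 bulk columns that match no sample here were not used. The genes and lists were chosen with earlier results of these data known. All 9 genes were named in every comparison, other zinc genes only where called (Mtf1 was named in addition, after its values were seen), and for Slc30a8, Mt1 and Mt2 the 5 genes most alike among those with at least 200 UMIs, of which 1 is not reported here.

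Doublets were marked with a re-implementation of DoubletFinder's nearest-neighbour score (pN 0.25, pK 0.3 and 0.06, 2% of cells). Clusters were made with Seurat 5.3.0, without the zinc genes, and non-endocrine clusters removed. Classes were set by hormone thresholds, and monohormonal cells also by cluster. Sums of at least 10 cells were tested with edgeR 4.0.16 (R 4.3.3, filterByExpr), and bulk genes with a mean of at least 5 counts per library likewise. Standard errors were derived from the F statistic and are approximate. Each single-cell experiment pooled islets of several mice, and nothing says that the bulk libraries are separate animals, so their p-values measure the spread between libraries, which may be technical. TPM used exon lengths of GENCODE M21, joined over all transcripts of a gene and matched for 97.6% of counts. On simulated data the test of Ppy+ against Gcg+ cells called 96% of 2-fold changes over 9343 genes, and the bulk test 87% of 4-fold and 6% of 2-fold changes over 17650 genes, where the fold minimum is itself 2-fold. The changed genes were drawn only from those above a minimum mean level, and a single dispersion served all genes. These shares therefore do not hold for the sparse transporters or for genes that vary more between experiments. Intervals of levels and shares cover counting error only, and those of log2 fold changes were made from the approximate standard errors.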

Additional observations from a re-analysis of the deposited data

Results flagged for a closer look

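Of 81 contrasts between classes compared across the 2 experiments, 2 changed direction with counting intervals that did not overlap in either experiment, both involving Mt2 in Gcg+ cells. In CPM of all UMIs the log2 ratio of Mt2 in Ppy+ against Gcg+ cells was -0.48 in experiment 1 (181 against 252 CPM) and 1.32 in experiment 2 (164 against 65.6 CPM). The log2 ratio of Mt2 in Gcg+ against Ins2+ cells was 0.32 in experiment 1 (252 against 202 CPM) and -1.55 in experiment 2 (65.6 against 192 CPM). With hormone UMIs left out of the totals the same ratios were 0.0089 and 1.82 for Ppy+ against Gcg+ cells, and -1.08 and -2.71 for Gcg+ against Ins2+ cells, so that on this scale neither changed direction. The difference between experiments was not tested, since each holds 1 sum per class. Among the 9 genes in the 5 bulk γ-cell libraries, 0 had a library that stood apart by Dixon's criterion, which chance alone meets in about 1 group of 20.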

How the results depend on the processing

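Of 1026 recomputed folds of the 9 genes, 24 lost the call, 14 changed sign and 925 were counted as unchanged. The 162 folds from 1 experiment alone have no test, so that no call could be kept or lost there. Such a fold counted as unchanged when it lay within 1 standard error of the main fold. The other 63 were among these 162 folds and moved by over 1 standard error. Sign changes of uncalled folds from 1 experiment alone are not among the 14. Signs differed between the 2 experiments in 15 of 81 contrasts, of which 0 were called. Among them were Slc39a6 in Gcg+ against Ins2+ (-1.07 and 0.48) and Sst+ cells (-0.26 and 1.35), Slc39a14 in Ppy+Sst+ against Ppy+ cells (0.56 and -1.04) and Slc30a9 in Gcg+ against Sst+ cells (0.34 and -1.11). Of 26 called contrasts, 9 moved by over 1.5 times in 1 experiment, as given with each. The 14 sign changes under other settings were also in folds that were not called. For Ppy+ against Gcg+ cells, Slc39a6 became 0.0020 without a filter and 0.10 with the library as a block, and Slc39a14 0.030 with that block. Slc30a5 became 0.12 with the library as a block for Ppy+ against Sst+ cells. For Ppy+Gcg+ against Ppy+ cells, Slc30a5 became 0.0027 with hormone genes left out of library sizes, 0.0026 without the cluster requirement, 0.00085 without doublet removal and 0.0085 with raised hormone thresholds. Raised thresholds also took Slc30a7 to -0.032 in Ppy+Gcg+, -0.39 in Ppy+Ins2+ and -0.038 in Ppy+Sst+ cells. In bulk γ-cells against δ-cells Slc30a7 became -0.10 with upper-quartile scaling, and Mt1 ranged from -0.36 to 0.12 when single libraries were left out. Upper-quartile scaling put 44.9% of bulk calls higher in γ-cells, against 59.3% with TMM.

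Counts of calls moved more. Genes called for Ppy+ against Gcg+ cells were 1304, but 805 with DESeq2, 784 with no replicate block (the experiment left out) and 399 with the library as a block, and the last 2 left 1 zinc gene of 2. For Ppy+ against Ins2+ cells the library block left 1420 of 2760 genes and 3 of 5 zinc genes. For Ppy+ against Sst+ cells 1203 genes became 759 with no replicate block and 467 with the library block. DESeq2 left 2 of 4 zinc genes for Gcg+ against Ins2+ and 3 of 5 for Ins2+ against Sst+ cells. For Ppy+Gcg+ against Ppy+ cells 287 genes became 131 (DESeq2) and 84 (no replicate block). For Ppy+Ins2+ against Ppy+ cells 782 genes became 426 (no replicate block) and 516 (raised thresholds), and both settings and DESeq2 left 1 of 2 zinc genes. For Ppy+Sst+ against Ppy+ cells 824 genes became 532 (DESeq2, 1 of 2 zinc genes) and 436 (no replicate block). The causes were not tested, except that the library block compares the fractions only through bihormonal cells found in both.

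The bulk replicate numbers do not pair the libraries: deviations of same-numbered libraries correlated at -0.181, 0.076 and -0.313. With them as a replicate block, 7 zinc genes and 5373 genes were called, and leaving out single libraries gave 5 to 7 zinc genes and 5482 to 6255 genes. With 2 sums per class, or few UMIs in Sst+ cells, depth limits what single-cell tests of the sparse transporters can show.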
